A study of Mus musculus with 8 samples.

Results

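The 10 genes Ryr2, Casq2, Trdn, Jph2, Hrc, Atp2a2, Pln, Sln, Cacna1c and Slc8a1 encode the proteins that release calcium into the cytosol of the heart muscle cell and take it up again. They were found in the array table by gene symbol, with the brightest probe set (the group of probes read out as 1 value) taken where a gene had several, and all 10 were measured among 19933 genes. Each value is the intensity of 1 array hybridised with left ventricular RNA of 1 mouse. The study asked which transcripts differ when placental growth factor (PlGF), a ligand of the VEGF family that drives vessel growth, is expressed in the heart alone or together with RGS4, a protein that shortens G protein signalling.

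All mice were C57/Bl6 and 11 weeks old, and by the study's design doxycycline was taken out of the diet at 5 weeks of age, which leaves 6 weeks for the transgenes to act. The 2 mice of the PlGF group and the 3 mice labelled PlGF/RGS4 are described as carrying responder transgenes switched on by tTA, the tetracycline transactivator, under the αMHC promoter, which is active in heart muscle cells. The 3 control mice were littermates that had inherited only 1 of the transgenes, so a control may carry tTA without a responder, or a responder that is not switched on. By the labels the arrays are biological replicates, and the sex is not given.

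In each heartbeat the action potential opens L-type calcium channels (Cacna1c) in the T-tubules, the infoldings of the surface membrane. The calcium that enters opens ryanodine receptors (Ryr2) of the sarcoplasmic reticulum, the store inside the cell, which junctophilin 2 (Jph2) holds close to the T-tubule. Calsequestrin 2 (Casq2) binds calcium inside the store and triadin (Trdn) couples it to the release channel. For relaxation the pump SERCA2a (Atp2a2), held back by phospholamban (Pln) and sarcolipin (Sln), returns calcium to the store, and the sodium-calcium exchanger NCX1 (Slc8a1) moves the rest out of the cell. A low level of SERCA2 and a high share of phospholamban are known features of failing myocardium.

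Promoter sequence from RefSeq (GRCm38.p6) was matched by symbol for 7 of the 10 genes, in 10 windows, since Jph2 has 2 and Cacna1c has 3. Trdn, Atp2a2 and Sln had no entry. The 250 bases before the transcription start are shown for 4 genes of calcium release: Ryr2 and Hrc, whose intensity was lowest in the first PlGF heart, Jph2, which was lower in all transgenic hearts, and Casq2, which overlapped the controls. The windows are chr13:12106946-12107195 on the minus strand for Ryr2, chr7:45335019-45335268 on the plus strand for Hrc, chr2:163397994-163398243 on the minus strand for Jph2 (the farther upstream of its windows) and chr3:102086165-102086414 on the plus strand for Casq2. Capitals mark every match to the motifs searched on both strands.
Ryr2: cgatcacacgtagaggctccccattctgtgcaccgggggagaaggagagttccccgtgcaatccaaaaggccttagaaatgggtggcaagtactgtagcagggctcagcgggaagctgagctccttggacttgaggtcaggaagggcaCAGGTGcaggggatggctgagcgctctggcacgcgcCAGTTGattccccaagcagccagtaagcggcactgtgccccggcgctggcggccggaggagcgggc
Hrc: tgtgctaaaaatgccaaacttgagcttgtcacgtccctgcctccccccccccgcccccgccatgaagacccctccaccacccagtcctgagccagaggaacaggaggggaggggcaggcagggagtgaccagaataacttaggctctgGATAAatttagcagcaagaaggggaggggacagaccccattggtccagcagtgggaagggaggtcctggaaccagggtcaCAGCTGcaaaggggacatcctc
Jph2: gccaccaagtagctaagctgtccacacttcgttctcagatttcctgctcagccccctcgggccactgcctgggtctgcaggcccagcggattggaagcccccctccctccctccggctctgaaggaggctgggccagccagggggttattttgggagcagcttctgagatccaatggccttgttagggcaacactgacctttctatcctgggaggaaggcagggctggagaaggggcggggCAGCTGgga
Casq2: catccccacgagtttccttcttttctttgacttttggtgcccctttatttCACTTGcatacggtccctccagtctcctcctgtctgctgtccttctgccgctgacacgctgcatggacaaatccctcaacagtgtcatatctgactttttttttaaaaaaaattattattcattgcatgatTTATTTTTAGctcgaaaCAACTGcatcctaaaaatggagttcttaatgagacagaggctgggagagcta

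The motifs searched were the E-box CANNTG, the M-CAT box CATTCC, the GATA motif GATAA, the TATA box TATAAA, the MEF2 site and the CArG box, all known from promoters of muscle genes. Counting upstream from the start, the E-box nearest the start lay at −66 in Ryr2, −22 in Hrc, −9 in Jph2 and −52 in Casq2, and Ryr2 and Casq2 each held another farther upstream. Hrc also held GATAA at −102, and Casq2 held a MEF2 match at −69. Over all 32851 RefSeq promoter windows of 300 bases, 72.3% held an E-box, 25.4% GATAA, 14.7% the M-CAT box, 13.6% TATAAA, 3.19% a MEF2 match and 1.63% a CArG box. These matches describe the letters of the windows and do not show that a factor binds.

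A few facts of the series touch every result below. Pgf, the gene of PlGF, read 4136.3 and 916.6 in the PlGF hearts and 210.8 to 300 in the hearts labelled PlGF/RGS4, against 211.1 to 387.1 in control, and Rgs4 read 186.9 to 233.7 in that group against 209.5 to 281.5 in control. Neither gene thus reads above control under the PlGF/RGS4 label, and that group is called by its label throughout. PlGF replicate 1 stood apart: it correlated with arrays outside its group at a mean r of 0.974, and the other 7 arrays did so at 0.991 to 0.993. All 14 ventricular sarcomere markers were measured in every heart and summed to 135635.9 to 150944.0, while the 8 atrial markers summed to 2812.4 to 5834.8. Many deposited values are repeated exactly: 16383 of 28440 probe sets hold the same intensity on at least 2 arrays, and the reason is not given in the sources used here. Xist reads PlGF replicate 1, control replicate 2 and PlGF/RGS4 replicate 2 as male and the other 5 as female, so in PlGF sex and heart cannot be told apart.

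The PlGF hearts had lower intensities than the controls for most genes of calcium release, uptake and entry, but none of the 10 genes passed the test. On the log2 scale (log2 of intensity plus 1) the median difference from control over the 10 genes was −0.26, against −0.03 over all genes. With limma, 0 of 10 reached an adjusted p under 0.05, where 2.53% of all genes did. Ryr2, Jph2, Hrc, Atp2a2, Pln and Cacna1c were lower at an unadjusted p under 0.05, which makes 6 of 10 where 11.7% of all genes met the same rule. The same 6 genes were below every control in both PlGF hearts, where 19.5% of all genes did not overlap in this direction, while 0 of 10 lay above every control, where 14.3% of all genes did. The two-sample t-test named in the methods called 0 of 10 after adjustment and 1 of 10 at an unadjusted p under 0.05, near its 9.47% of all genes. Without PlGF replicate 2 limma called 5 of 10 (Ryr2, Hrc, Atp2a2, Pln and Cacna1c), and without PlGF replicate 1 it called 0.

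The hearts labelled PlGF/RGS4 lay close to control, with a median of −0.04 over the 10 genes and 0.00 over all genes. None of the 10 genes passed (limma), where 0.0151% of all genes did. Jph2 alone was lower at an unadjusted p under 0.05, 1 of 10 where 2.28% of all genes met that rule, and the t-test called 0 of 10 after adjustment and 3 of 10 before it, where it called 6.74% of all genes. Ryr2 and Jph2 did not overlap the controls and were lower, which makes 2 of 10 where 5.85% of all genes did so, while Trdn did not overlap and was higher, 1 of 10 where 6.96% of all genes were. Both transgenic groups were compared with the same 3 control arrays, so the comparisons are not independent.

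Set directly against the hearts labelled PlGF/RGS4, the PlGF hearts had a median difference of −0.20 over the 10 genes and −0.03 over all genes. No member passed the adjusted threshold in limma (0 of 10, where 1.19% of all genes did), and the t-test called 0 of 10 before adjustment too, against 8.16% of all genes. Ryr2, Pln and Cacna1c were lower at an unadjusted p under 0.05 in limma, 3 of 10 where 10.6% of all genes were. Ryr2, Trdn, Hrc, Atp2a2, Pln and Cacna1c were lower without overlap, 6 of 10 where 19.9% of all genes were, and Casq2 was higher without overlap, 1 of 10 where 12.6% of all genes were. Without PlGF replicate 2 limma called 6 of 10, the same 5 and Trdn, and without PlGF replicate 1 it called 0.

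**Figure D1:**
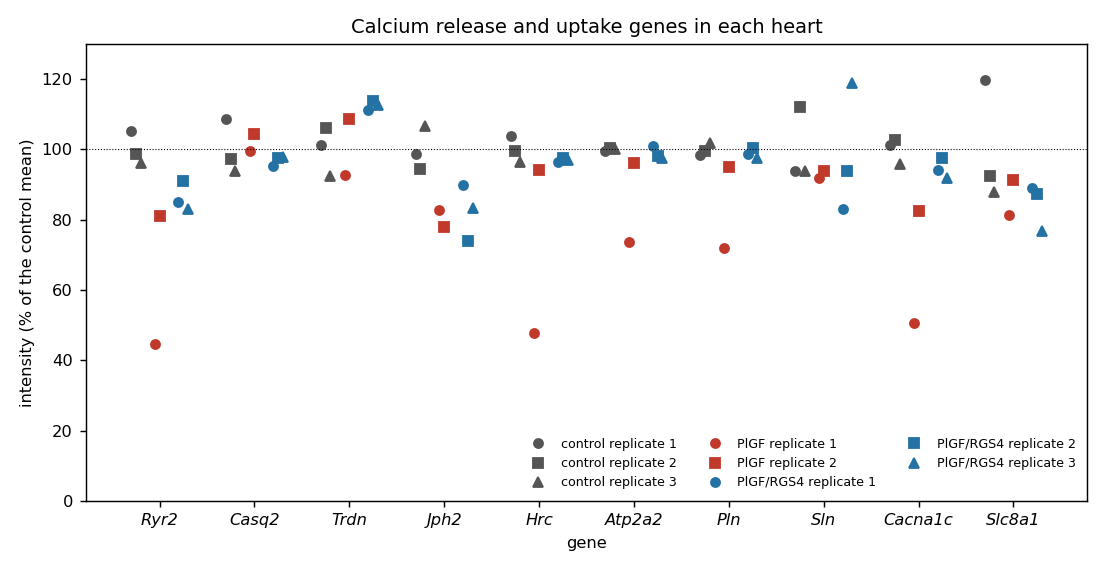
Intensity of each of the 10 calcium genes in each of the 8 hearts, as a percentage of the mean of the 3 control hearts (vertical axis, linear from 0), with 1 point per heart and genes along the horizontal axis. PlGF replicate 1 sits at 44.7% for Ryr2, 47.7% for Hrc and 50.6% for Cacna1c, whereas PlGF replicate 2 sits at 81.0%, 94.2% and 82.6%.

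Among the genes of calcium release, Ryr2 encodes the ryanodine receptor through which the store empties. Its intensity (probe set 10407598) was 8408.0, 7891.7 and 7693.7 in the 3 control hearts, 3573.3 and 6479.0 in the 2 PlGF hearts, and 6794.0, 7288.7 and 6631.9 in the hearts labelled PlGF/RGS4. Both transgenic groups thus read below every control heart, and the first PlGF heart read far below all others. The standard deviation on the log2 scale was 0.61 in PlGF, 0.07 in control and 0.07 in PlGF/RGS4. For each gene the limma fit shares 1 spread over the 3 groups. The SE, interval and p of PlGF/RGS4 versus control thus also carry the gap between the 2 PlGF hearts, here and for the genes below. The log2 fold change was −0.73 ± 0.21 (SE) in PlGF versus control (limma adjusted p = 0.107) and −0.21 ± 0.19 in PlGF/RGS4 versus control (adjusted p = 0.998). Between the transgenic groups it was −0.52 ± 0.21 (adjusted p = 0.242). Without PlGF replicate 1 the difference from control was −0.30, and without PlGF replicate 2 it was −1.16 (adjusted p = 0.000225, with the remaining heart assumed to vary like the other groups). Over the 8 fits that each lack 1 array, the adjusted p spanned 0.000225 to 0.237.

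Hrc encodes the histidine-rich calcium-binding protein, which binds calcium in the store and touches both triadin and the pump. It read 3078.7, 2954.7 and 2858.8 in control (probe set 10552919), 1414.5 and 2793.6 in PlGF, and 2857.3, 2887.7 and 2873.5 in the hearts labelled PlGF/RGS4. Only the first PlGF heart stood clearly away from the rest, and the second was just under the lowest control. The log2 fold change was −0.58 ± 0.24 in PlGF versus control (limma adjusted p = 0.209) and −0.04 ± 0.21 in PlGF/RGS4 versus control (adjusted p = 0.998). Without PlGF replicate 1 the PlGF value was −0.08, so this heart decides it, and without PlGF replicate 2 it was −1.07 (adjusted p = 0.000120; range 0.000120 to 0.622 over the arrays left out in turn).

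Jph2, the membrane bridge between T-tubule and store, had a different pattern. Its intensities were 1166.5, 1115.0 and 1260.3 in control (probe set 10489355), 976.2 and 919.0 in PlGF, and 1062.6, 873.0 and 983.8 in the hearts labelled PlGF/RGS4. All 5 transgenic hearts lay below the lowest control, and the transgenic groups overlapped each other. The log2 fold changes from control were −0.32 ± 0.09 in PlGF (limma adjusted p = 0.109) and −0.28 ± 0.08 in PlGF/RGS4 (adjusted p = 0.917). The difference between the transgenic groups was −0.03, with a 95% interval from −0.25 to 0.18. Jph2 was the member whose PlGF value depended least on 1 heart, running from −0.36 to −0.27 with each array left out. A dimmer probe set of Jph2 (10489357) read −0.26 in PlGF and −0.24 in PlGF/RGS4.

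Casq2, the calcium buffer of the store, gave no difference between the transgenic and control hearts larger than their spread. It read 6152.5, 5506.8 and 5309.7 in control (probe set 10494804), 5625.5 and 5897.9 in PlGF, and 5395.6, 5515.0 and 5528.6 in the hearts labelled PlGF/RGS4. Both transgenic groups lay within the range of the controls. The log2 fold change was 0.03 in PlGF (95% interval −0.13 to 0.19, limma adjusted p = 0.835) and −0.04 in PlGF/RGS4 (−0.19 to 0.10, adjusted p = 0.998). The sign of the PlGF value turned when arrays were centred on their median (−0.02), so Casq2 has no settled direction.

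Trdn, the anchor that ties calsequestrin to the release channel, is read by 19 probe sets on this array, and they do not give the same result. The brightest (10362420) read 5021.0, 5267.3 and 4591.0 in the controls, 4603.5 and 5387.1 in the PlGF hearts, and 5514.8, 5638.1 and 5582.1 in the hearts labelled PlGF/RGS4. On it the PlGF hearts overlapped the controls (0.01 ± 0.08, limma adjusted p = 0.968), and all 3 PlGF/RGS4 hearts were above them (0.17 ± 0.07, adjusted p = 0.995). The next brightest (10362404) read 4883.9, 5036.5 and 5098.3 in control and 3123.2 and 4929.0 in PlGF. Over all 19 probe sets PlGF replicate 1 was below every control on 18, with a median of −0.49 and a range of −0.99 to −0.09, whereas PlGF replicate 2 was above the control mean on 17, with a median of 0.20. All 3 hearts labelled PlGF/RGS4 were above the control mean on 16 of them. No probe set of Trdn passed the test, the lowest adjusted p being 0.198 in PlGF and 0.907 in PlGF/RGS4. Probe sets of 1 gene share their RNA and are not replicates, and whether they read different triadin isoforms was not tested.

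**Figure D2:**
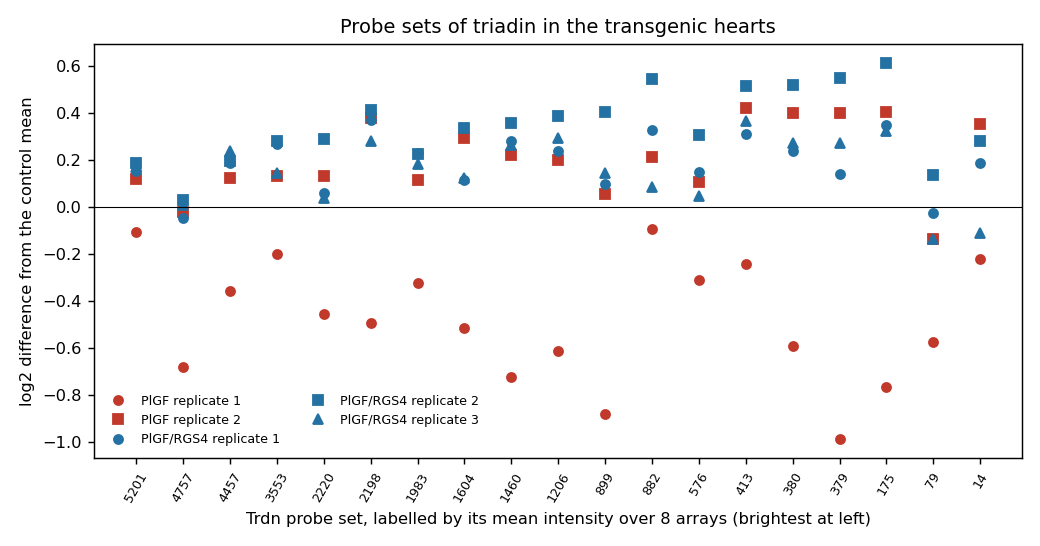
Log2 difference from the control mean (vertical axis) for the 19 probe sets of Trdn, ordered from the brightest at left and labelled by their mean intensity over 8 arrays, with 1 point per transgenic heart. PlGF replicate 1 lies below 0 on every probe set (−0.99 to −0.09), while PlGF replicate 2 lies above 0 on 17 of the 19.

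In the uptake arm, the pump gene Atp2a2 and its inhibitor Pln kept close to each other in every heart. Atp2a2 read 16172.2, 16312.8 and 16297.0 in control (probe set 10533483), 11987.8 and 15644.3 in PlGF, and 16429.6, 15959.3 and 15857.2 in the hearts labelled PlGF/RGS4. Pln read 15232.0, 15390.7 and 15751.1 in control (probe set 10363157), 11125.2 and 14702.8 in PlGF, and 15242.2, 15515.3 and 15094.5 in the hearts labelled PlGF/RGS4. For both genes the first PlGF heart was low, at 73.7% and 72.0% of the control mean, and the second was just under the lowest control. The log2 fold change in PlGF versus control was −0.25 ± 0.10 for Atp2a2 (limma adjusted p = 0.204) and −0.27 ± 0.11 for Pln (adjusted p = 0.184). In PlGF/RGS4 versus control both were −0.02 (adjusted p = 0.998 for each), with 95% intervals of −0.23 to 0.20 for Atp2a2 and −0.24 to 0.20 for Pln. The PlGF values were −0.06 and −0.07 without PlGF replicate 1, and −0.44 and −0.47 without PlGF replicate 2, with adjusted p = 0.00118 and 0.000977. The adjusted p ran from 0.00118 to 0.748 for Atp2a2 and from 0.000977 to 0.627 for Pln over the arrays left out. Intensities of this size lie near the top of the scale, which reached 21704, and whether the probes respond in proportion there was not tested.

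The balance of inhibitor to pump was read as the log2 difference of Pln minus Atp2a2 within each heart, which does not depend on how an array was scaled as a whole. It was −0.09, −0.08 and −0.05 in the controls, −0.11 and −0.09 in the PlGF hearts, and −0.11, −0.04 and −0.07 in the hearts labelled PlGF/RGS4. All 8 hearts fell in this narrow band, and both PlGF hearts were just below the controls and within the range of the hearts labelled PlGF/RGS4. The difference of PlGF from control was −0.03 (two-sided exact permutation p = 0.3), that of PlGF/RGS4 from control was 0.00 in size (exact p = 1), and that of PlGF from PlGF/RGS4 was −0.03 (exact p = 0.5). With 2 arrays against 3, or 3 against 3, these tests cannot go below 0.1.

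Sln, the second small inhibitor of the pump, is mainly an atrial gene in the mouse. It read 42.3, 50.5 and 42.3 in control (probe set 10585390), 41.4 and 42.3 in PlGF, and 37.4, 42.3 and 53.6 in the hearts labelled PlGF/RGS4. The same value, 42.3, stood in 4 of the 8 arrays, so these readings carry little information on differences. The log2 fold changes were −0.10 ± 0.15 in PlGF (limma adjusted p = 0.721) and −0.03 ± 0.13 in PlGF/RGS4 (adjusted p = 0.998). Sln minus Atp2a2 differed by 0.15 in PlGF versus control, by −0.01 in PlGF/RGS4 versus control and by 0.16 between the transgenic groups. The two-sided exact permutation p was 0.5 for the first, 0.4 for the last and no lower for PlGF/RGS4 versus control. Within the hearts labelled PlGF/RGS4 the log2 difference itself ran from −8.74 to −8.18, following the dim Sln reading. Without PlGF replicate 1 the PlGF versus control value was −0.03.

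Cacna1c, the pore of the L-type channel through which the trigger calcium enters, followed Ryr2 and Hrc. Its intensities were 2867.7, 2912.1 and 2719.0 in control (probe set 10547322), 1432.8 and 2339.6 in PlGF, and 2670.1, 2766.3 and 2605.7 in the hearts labelled PlGF/RGS4. Both PlGF hearts lay below all the others, and the PlGF/RGS4 hearts overlapped the controls. The log2 fold change was −0.63 ± 0.18 in PlGF versus control (limma adjusted p = 0.0992, the lowest of the 10 genes), −0.08 ± 0.16 in PlGF/RGS4 versus control (adjusted p = 0.998) and −0.55 ± 0.18 between the transgenic groups (adjusted p = 0.171). Leaving out PlGF replicate 1 gave −0.28, and leaving out PlGF replicate 2 gave −0.98 (adjusted p = 0.000194). Over the arrays left out in turn the adjusted p ran from 0.000194 to 0.237.

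Slc8a1, the exchanger that extrudes calcium, spread widely among the controls. It read 2588.0, 1996.2 and 1903.2 in control (probe set 10453233), 1756.0 and 1974.3 in PlGF, and 1922.3, 1889.5 and 1662.2 in the hearts labelled PlGF/RGS4. The first control heart was above all the other hearts, and both transgenic groups overlapped the remaining controls. The log2 fold change was −0.20 ± 0.14 in PlGF (limma adjusted p = 0.416) and −0.23 ± 0.12 in PlGF/RGS4 (adjusted p = 0.995). Leaving out control replicate 1 gave −0.07 and −0.10. A dimmer probe set of the gene (10453231) read 0.00 in PlGF and −0.09 in PlGF/RGS4.

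**Figure D3:**
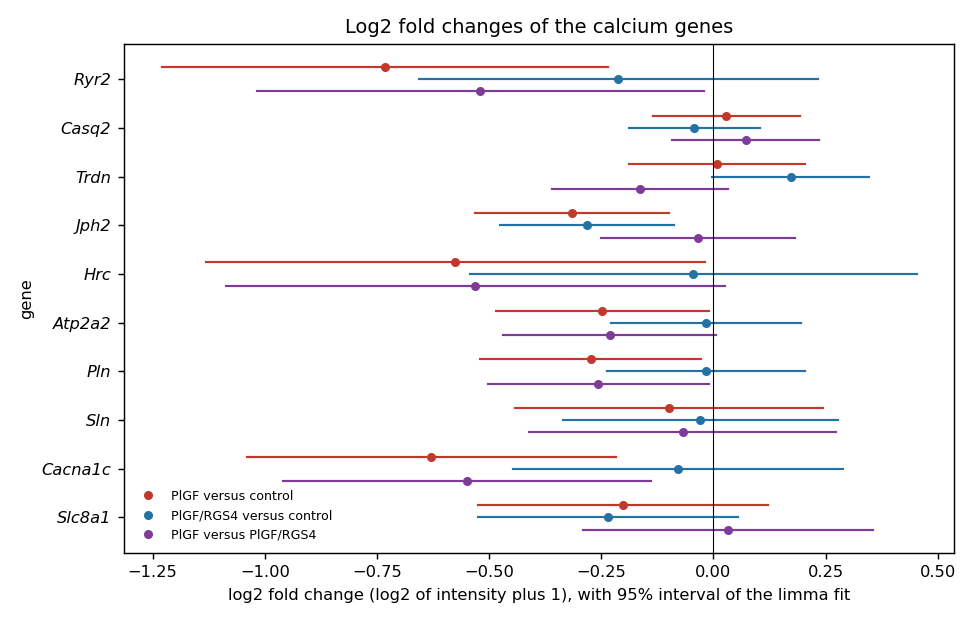
Log2 fold change (horizontal axis, log2 of intensity plus 1) of each calcium gene in the 3 comparisons, with points at limma's estimate and lines for its unadjusted 95% interval from the fit to 8 arrays. In PlGF versus control the intervals of 6 genes lie below 0, from Ryr2 at −0.73 to Atp2a2 at −0.25, while in PlGF/RGS4 versus control only that of Jph2, at −0.28, does.

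The 10 genes did not vary as 1 block. The likeness of 2 genes was measured as the root mean square of the gap between their log2 deviations from their own control means, over the 8 arrays. Atp2a2 and Pln were the most alike pair at 0.02, followed by Hrc with Cacna1c at 0.08 and Ryr2 with Cacna1c at 0.11. Ryr2 and Trdn were the least alike at 0.47, with Trdn read by its brightest probe set alone. That probe set was −0.11 in PlGF replicate 1, where the 19 probe sets of Trdn had a median of −0.49, so this rank depends on the probe set. Among all other genes on the array, Dhrs11 (0.07), Cdnf (0.08) and Tst (0.08) were nearest to Ryr2, Zfand1 (0.05), Pink1 (0.05) and Ndufs1 (0.06) to Hrc, and Fn3k (0.04), Bckdhb (0.04) and Zfand1 (0.05) to Cacna1c. All of these came from the same 8 arrays, and each was far down in PlGF replicate 1, at −0.88 to −1.21, and less so in PlGF replicate 2, at −0.06 to −0.36.

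Sex was read from Xist and bears on the PlGF group, since its low heart is the male one. Female with female, PlGF minus control was −0.31 for Ryr2, −0.26 for Cacna1c, −0.40 for Jph2, −0.09 for Hrc, −0.05 for Atp2a2 and −0.08 for Pln. Male with male, with 1 heart on each side, it was −1.14, −1.02, −0.19, −1.06, −0.44 and −0.47 in the same order. These 6 genes were the ones below every control in both PlGF hearts, so lower values within each sex follow from that choice. They do not test sex, as each sex holds 1 PlGF heart. Of the other members, female and male values were 0.17 and −0.19 for Trdn, 0.05 and 0.03 for Casq2, and −0.17 and −0.18 for Slc8a1. For Sln they were 0 and −0.28. In PlGF/RGS4 minus control the female and male values were −0.26 and −0.11 for Ryr2 and −0.25 and −0.35 for Jph2.

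Of the marker lists, those of leukocytes and endothelium summed above every control in both PlGF hearts. The 12 leukocyte markers, all measured, summed to 1702.9 to 1817.8 in control, 7684.5 and 3322.2 in the PlGF hearts, and 1597.8 to 1986.4 in the hearts labelled PlGF/RGS4, and 8 and 9 of them were above every control in the 2 PlGF hearts. Of these, Ptprc read 1051.0 and 505.5 in the PlGF hearts and 147.5 to 162.0 in control. Nkg7, with the largest difference of the 12, read 2058.7 and 618.2 against 41.4 to 50.9. On the log2 scale the 12 markers ran from −0.05 to 5.50 from the control mean in PlGF replicate 1 (median 1.34). In PlGF replicate 2 they ran from −0.18 to 3.76 (median 0.47), and 1 was below every control. The 14 sarcomere markers summed to 135635.9 in PlGF replicate 1, where 11 were below every control, and to 144993.7 to 150944.0 in the other 7 hearts. With each array centred on the median of these 14 markers, Ryr2 was −1.04, Hrc −0.95, Cacna1c −0.86, Pln −0.36, Atp2a2 −0.32 and Jph2 −0.15 from control in PlGF replicate 1. The other members were not all below control in that heart, with Slc8a1 at −0.17, Trdn at 0.01, Sln at 0.01 and Casq2 at 0.11. The 7 endothelial markers summed to 14218.3 and 13708.6 in PlGF and to 11206.4 to 11914.7 in the other hearts. The 7 fibroblast markers summed to 10215.8 and 10587.2 in PlGF and to 10395.3 to 10881.9 in control. Of them, 3 and 4 were above every control in the 2 PlGF hearts, and 3 and 1 were below. The 9 skeletal muscle markers summed to 13102.2 and 11315.2 in PlGF and to 11613.6 to 12024.9 in control. In PlGF replicate 1, however, 6 of the 9 were below every control and 1 above, with a median log2 difference of −0.16. In PlGF replicate 2, 4 were below and 2 above, with a median of −0.02. The 5 conduction system markers measured summed to 661.3 in PlGF replicate 1 and to 881.2 to 984.6 in the others. The 8 atrial markers, Sln among them, summed to 4659.6 to 5489.6 in control, 5834.8 and 2812.4 in PlGF, and 3263.2 to 3893.9 in the hearts labelled PlGF/RGS4. In PlGF replicate 1, 4 of the 8 were below every control and 2 above, with a median log2 difference of −0.10. In PlGF replicate 2 the median was −0.03, so the sums do not follow the list as a whole. The part of other cells in the calcium gene values was not tested, and in such bulk tissue fewer muscle cells and less RNA per muscle cell cannot be told apart.

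The wider calcium system was followed through 69 measured genes of 79 listed, in 8 lists. In PlGF versus control 3 of the 69 were higher (Casq1, Orai2 and Cacnb1) and 0 lower at an adjusted p under 0.05 in limma, with 66 not called, and the median was −0.01 against −0.03 for all genes. Before adjustment, 7 were higher and 8 lower under the same threshold, near the shares over all genes (10.9% higher and 11.7% lower, and 2.53% for adjusted calls). The adjusted count was 33 without PlGF replicate 2, 0 without control replicate 3, and 1 on leaving out any other array. In PlGF/RGS4 versus control 1 was higher (Casq1) and 0 lower, with 6 higher and 2 lower unadjusted, where 2.74% and 2.28% of all genes were. Between the transgenic groups limma called 0 of 69, with 10 higher and 10 lower unadjusted, where 8.95% and 10.6% of all genes were. After adjustment the t-test called 0 of the 69 in every comparison.

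Casq1, the calsequestrin of skeletal muscle, read 229.5, 260.6 and 213.5 in the controls, 674.7 and 604.2 in the PlGF hearts, and 667.0, 557.7 and 752.0 in the hearts labelled PlGF/RGS4. The 5 transgenic hearts were all above the controls and overlapped each other. It rose by 1.45 ± 0.14 in PlGF (limma adjusted p = 0.00799) and by 1.48 ± 0.12 in PlGF/RGS4 (adjusted p = 0.0363), while the cardiac paralog Casq2 overlapped the controls as given above. The call in PlGF/RGS4 was lost whichever array was left out (adjusted p from 0.0543 to 0.376), with the value between 1.38 and 1.60, and that in PlGF was lost without control replicate 3 (adjusted p = 0.0532; range 0.00160 to 0.0532). Neither call held with only the 2 groups compared (limma adjusted p = 0.109 in PlGF and 0.0543 in PlGF/RGS4), by the t-test (adjusted p = 0.492 and 0.239) or with the analysis of variance spread (0.0917 and 0.334), and that in PlGF/RGS4 was lost with sex as a term (0.118).

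The other paralogs of the release channel stayed close to control. Ryr1 read 67.0 to 74.2 in control, 60 and 68.1 in PlGF, and 66.4 to 68.1 in the hearts labelled PlGF/RGS4, and Ryr3 read 41.0 to 43.2, 39.8 and 41.0, and 39.9 to 41.0. Neither passed the test (limma adjusted p = 0.341 and 0.613 in PlGF). Among the 15 measured regulators of the ryanodine receptor, from calmodulin to the FK506-binding proteins, limma called 0 in any comparison. Their median in PlGF versus control was 0.08. With the p not adjusted, 1 of 15 was lower and 0 higher, where 11.7% and 10.9% of all genes were. The lower one was Pde4d, a phosphodiesterase found in the receptor complex, which read 795.3 to 851.5 in control, 520.3 and 746.3 in PlGF, and 799.5 to 859.4 in the hearts labelled PlGF/RGS4 (−0.41 ± 0.13 in PlGF, adjusted p = 0.138). Fkbp1a, which encodes FKBP12, was 0.19 ± 0.09 and Srl, the luminal protein sarcalumenin, 0.12 ± 0.06 in PlGF (adjusted p = 0.260 and 0.264).

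Of 9 measured paralogs and regulators of the pump, 0 were called in PlGF, where 2.53% of all genes were. At an unadjusted limma p under 0.05, 3 of 9 were lower in PlGF, where 11.7% of all genes were. The median over the 9 was −0.10. Ppp1r3a, a targeting subunit of protein phosphatase 1, read 3052.3 to 3317.4 in control, 1806.7 and 2657.6 in PlGF, and 2681.6 to 3319.1 in the hearts labelled PlGF/RGS4 (−0.53 ± 0.16 in PlGF, limma adjusted p = 0.119). Akap7, an anchor of protein kinase A, read 716.4 to 750.7, 404.8 and 651.0, and 646.8 to 705.6 (−0.51 ± 0.17, adjusted p = 0.140). Ank2, the ankyrin that holds the exchanger and the sodium pump in place, read 1239.5 to 1396.4, 932.5 and 1136.7, and 1187.6 to 1196.3 (−0.34 ± 0.09, adjusted p = 0.0887). All 3 genes, which were picked by their p, had both PlGF hearts under the lowest control, as 19.5% of all genes did. The 3 hearts labelled PlGF/RGS4 were also below every control for Akap7 and Ank2, as they were for 5.85% of all genes. The skeletal pump Atp2a1 was −0.16 ± 0.07 and Atp2a3 was 0.01 ± 0.07 in PlGF (adjusted p = 0.249 and 0.969).

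Channel subunits and T-tubule genes lay on both sides of control. Of 11 measured, 1 gene, Cacnb1, passed in PlGF, where 2.53% of all genes did. This β subunit of the L-type channel, best known from skeletal muscle, read 121.8 to 129.2 in control. It read 159.7 and 161.0 in PlGF, and 158.5 to 181.2 in the hearts labelled PlGF/RGS4. It rose by 0.37 ± 0.07 in PlGF (limma adjusted p = 0.0425) and was 0.43 ± 0.06 in PlGF/RGS4 (adjusted p = 0.345), and the PlGF call was lost on leaving out any array other than PlGF replicate 2. It was also lost narrowly under quantile normalization (0.0591), median centring (0.0518) and a trended and robust prior (0.0503), and more widely with array weights (0.220), only the 2 groups compared (0.189), the analysis of variance spread (0.135) and the t-test (0.505). Cacna1g, a T-type channel, read 220.7 to 270.2 in control, 114.5 and 184.8 in PlGF, and 210.9 to 236.0 in the hearts labelled PlGF/RGS4 (−0.78 ± 0.19 in PlGF, adjusted p = 0.0734). Bin1, which shapes T-tubules, read 191.1 to 202.8, 378.7 and 234.6, and 192.0 to 210.9 (0.59 ± 0.17, adjusted p = 0.110). The first PlGF heart was the extreme one for both. The junctophilin paralog Jph1 was −0.15 ± 0.08 in PlGF and 0.18 ± 0.07 in PlGF/RGS4 (adjusted p = 0.319 and 0.968).

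Among the 8 store-operated entry and buffering genes, 1 was called in PlGF, where 2.53% of all genes were. Orai2, a pore subunit opened when the store is empty, read 133.7 to 152.6 in control, 202.2 and 183.0 in PlGF, and 149.6 to 158.1 in the hearts labelled PlGF/RGS4. It rose by 0.43 ± 0.07 in PlGF (limma adjusted p = 0.0369), and was 0.13 ± 0.07 in PlGF/RGS4 (adjusted p = 0.995) and 0.31 ± 0.07 between the transgenic groups (adjusted p = 0.106). This call too was lost on leaving out any array other than PlGF replicate 2, with values between 0.36 and 0.50 and adjusted p between 0.00587 and 0.131. It was lost too with array weights (0.151), only the 2 groups compared (0.214), the t-test (0.524) and the analysis of variance spread (0.131). Stim2 was 0.18 ± 0.11 and Orai3 −0.12 ± 0.08 in PlGF (adjusted p = 0.358 and 0.379).

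No gene was called in the lists for extrusion, mitochondria and calcineurin, where 2.53% of all genes were in PlGF versus control. In PlGF versus control the medians were 0.11 over 5 genes, −0.10 over 6 and 0.00 over 10. Atp2b1, the plasma membrane pump PMCA1, was 0.16 ± 0.06 (limma adjusted p = 0.188), Slc8a2 was 0.16 ± 0.10 (0.356) and Fxyd1, phospholemman, was −0.18 ± 0.09 (0.299). Mcu, the pore of the mitochondrial uniporter, read 456.4 to 461.8 in control, 399.5 and 411.7 in PlGF, and 458.4 to 496.1 in the hearts labelled PlGF/RGS4 (−0.18 ± 0.05 in PlGF, adjusted p = 0.113). Slc8b1, which moves calcium out of mitochondria, was 0.24 ± 0.07 (adjusted p = 0.117), and Letm1 −0.12 ± 0.07 (adjusted p = 0.312). Of the calcineurin genes, Myoz2, which binds calcineurin at the Z-disc, was −0.24 ± 0.09, and the transcription factors Nfatc2 and Nfatc1 were 0.43 ± 0.17 and 0.22 ± 0.12 (adjusted p = 0.179, 0.186 and 0.313). The calcineurin-induced gene Rcan1, named after its values were seen, read 748.4 to 1126.9 in control, 2617.8 and 881.2 in PlGF, and 819.4 to 832.8 in the hearts labelled PlGF/RGS4.

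**Figure D4:**
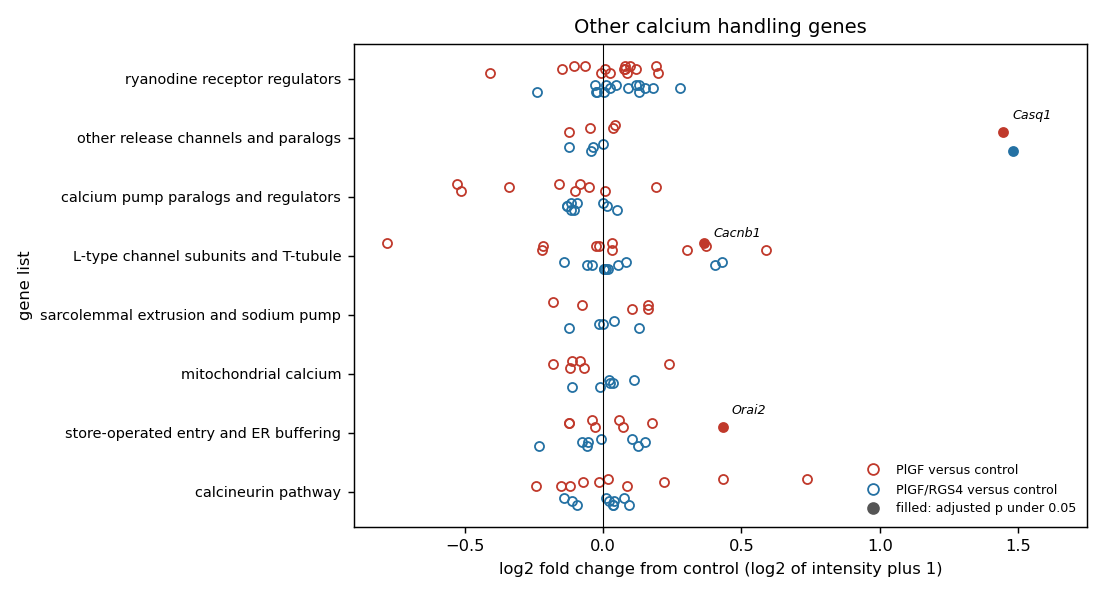
Log2 fold change from control (horizontal axis, log2 of intensity plus 1) of the 69 other calcium genes in 8 lists (vertical axis), with red for PlGF and blue for the hearts labelled PlGF/RGS4, and filled points at an adjusted p under 0.05. Casq1 stands apart near 1.45 and 1.48, Orai2 and Cacnb1 are filled in PlGF alone, and no gene below 0 is filled.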

How the data were processed

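The deposited values are linear intensity values, 1 per probe set, which the authors made from Affymetrix Mouse Gene 1.0 ST arrays with MAS5, Affymetrix settings and global scaling. The build is not given in the sources used here. Array medians ran from 111.1 to 115.2, and 0 columns were left out. Of 28440 probe sets, 21780 carried 1 gene symbol in GEO's platform annotation, 1618 several and 5042 none; the brightest probe set was kept for each of 19933 genes. Values were analysed as log2 of intensity plus 1, which understates changes of dim genes. The limma package 3.58.1 (R 4.3.3; functions lmFit and eBayes) fitted 3 group means to 8 arrays, with Benjamini-Hochberg adjustment over all genes and a threshold of 0.05. The fit was tested on simulated data. Within-array differences had two-sided exact permutation tests. SE is limma's, from 1 spread per gene shared by the 3 groups, intervals are 95%, and array number limits precision.

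Members, lists, tests and alternatives were chosen with earlier results of these data known. Named genes were all members, the 3 genes of each wider list with the smallest unadjusted p in PlGF versus control, all called genes, and paralogs. Beside these, Pgf, Rgs4, Xist, some marker genes and the genes most alike to members were named. Rcan1 was named outside this rule, after its values were seen. The 13 alternatives beside leaving out each array were other scalings, offsets, filters, priors, weights, sample sets, tests and blocks. Figures were drawn with matplotlib 3.10.9.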

Additional observations from a re-analysis of the deposited data

How the results depend on the processing

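The count of members past the threshold stayed 0 in all 3 comparisons under all 13 alternatives. Leaving out 1 array in turn, it ran from 0 to 5 in PlGF versus control and from 0 to 6 in PlGF versus PlGF/RGS4, and was above 0 only without PlGF replicate 2, where PlGF replicate 1 stands alone; without PlGF replicate 1 it was 0. For the 69 wider genes the count in PlGF versus control (3) was 1 with array weights and 0 with only the 2 groups compared, the methods' t-test or the one-way analysis of variance spread, and ran from 0 (without control replicate 3) to 33 (without PlGF replicate 2) over the arrays left out. In PlGF/RGS4 versus control (1) it was 0 under those last 3, with sex as a term, and over all arrays left out (0 to 0), and in PlGF versus PlGF/RGS4 (0) it ran from 0 to 36. Over all genes, the 505 called in PlGF versus control (356 higher, 149 lower) became 376 higher and 317 lower with arrays centred on their median, 131 with array weights, 0 with only the 2 groups, 4 with the t-test and 11 with the analysis of variance spread. The 237 in PlGF versus PlGF/RGS4 became 138 with an offset of 16, 110 above the median level, 1, 5 and 5. The 3 in PlGF/RGS4 versus control became 0 under those 3, the block and the sex term. Leaving out arrays gave 17 (without control replicate 3) to 5921, 0 to 1, and 11 (without PlGF/RGS4 replicate 3) to 5591, the highest PlGF counts each without PlGF replicate 2.

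With the replicate number as a block, 0 members and 0 wider genes were called, and 27 and 26 of all genes in PlGF versus control and PlGF versus PlGF/RGS4. The labels give no pairing by number. Deviations of same-numbered arrays correlated at −0.22 to 0.30, and those of other-numbered arrays at −0.24 to 0.22. All pairs read from Xist as the same sex were positive and all mixed pairs negative, and the cause was not tested. The block turned Trdn in PlGF versus control to −0.0189 and Slc8a1 in PlGF versus PlGF/RGS4 to −0.0434.

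Values near 0 changed sign elsewhere, and the cause was not tested. Centring on the median gave −0.0233 for Casq2 and −0.0442 for Trdn in PlGF versus control, and −0.0127 for Slc8a1 in PlGF versus PlGF/RGS4. Quantile normalization gave 0.00295 for Atp2a2 in PlGF/RGS4 versus control. Relative to sarcomere genes, Atp2a2 and Pln there were 0.000355 and 0.000176, and Jph2 and Casq1 in PlGF versus PlGF/RGS4 were 0.0109 and 0.0106. Array weights gave −0.00831 for Trdn in PlGF versus control. Within the same sex, Pln minus Atp2a2 in PlGF/RGS4 versus control was 0.0107. With arrays left out, the ranges were −0.0151 to 0.0912 (Casq2) and −0.11 to 0.12 (Trdn) in PlGF versus control, −0.0872 to 0.0191 (Casq2) and −0.17 to 0.0839 (Sln) in PlGF/RGS4 versus control, and −0.11 to 0.0314 (Jph2), −0.18 to 0.0715 (Sln), −0.0523 to 0.12 (Slc8a1) and −0.15 to 0.0659 (Casq1) in PlGF versus PlGF/RGS4. Pln minus Atp2a2 ran from −0.0165 to 0.0173 in PlGF/RGS4 versus control. Sln minus Atp2a2 ran from −0.0277 to 0.33 in PlGF versus control, −0.16 to 0.12 in PlGF/RGS4 versus control and −0.0141 to 0.34 in PlGF versus PlGF/RGS4. Sln has no value among genes above the median level. Precision is limited by 2 or 3 hearts a group, and repeated values limit what dim probe sets such as Sln can show.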
